A study of Bos taurus with 34 samples.

Results

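Transcripts of 5 genes linked to tumor necrosis factor (TNF) signaling were described in peripheral white blood cells (PWBC) of heifers. Signaling itself was not measured. The genes were LTB (ENSBTAG00000020674), TNFRSF1A (ENSBTAG00000004211), TNIP1 (ENSBTAG00000012671), ZRANB1 (ENSBTAG00000003395) and PIAS1 (ENSBTAG00000005564). The 5 genes were chosen by name, with their abundance by pregnancy outcome and their coexpression already known, out of 27570 genes with counts. All 5 were among the 10942 genes kept at 2 CPM or more in at least 5 libraries, where CPM is the count of read pairs of a gene scaled to the same library total in every heifer. Blood came from yearling Angus-Simmental crossbred heifers, all synchronized for fixed-time artificial insemination (AI) with semen of a single sire and later exposed to bulls. The question of the study was whether transcripts in blood drawn on the day of AI differ with the pregnancy outcome recorded afterwards. There were 6 heifers pregnant to AI (AI-preg), 6 pregnant later to natural breeding (NB-preg) and 5 that did not become pregnant (non-pregnant). Each heifer gave 1 PWBC library and 1 small RNA library from plasma.

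TNF and lymphotoxin are cytokines made by leukocytes. Their receptors recruit adaptor proteins that become decorated with ubiquitin chains, and these chains activate the IKK kinases, which free the NF-kB transcription factors to enter the nucleus. The pathway is restrained by proteins that bind or remove ubiquitin chains, and by proteins that act on the transcription factors in the nucleus. LTB encodes lymphotoxin beta, a membrane-bound ligand of the TNF family. TNFRSF1A encodes the main receptor of TNF on most cells. TNIP1 encodes a ubiquitin-binding partner of the inhibitor A20, ZRANB1 (also known as TRABID) a deubiquitinase, and PIAS1 a SUMO ligase that can hold back STAT and NF-kB transcription factors.

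In the order of RefSeq protein-coding genes (assembly ARS-UCD2.0, used for neighbors only), LTB lies next to TNF on chromosome 23. TNFRSF1A is separated from LTBR, the gene of the lymphotoxin beta receptor, by SCNN1A alone on chromosome 5.

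The libraries differed in depth and in their extremes. Read pairs counted on genes were between 15353819 and 67192941 in AI-preg, 6402207 and 56867279 in NB-preg, and 4184999 and 20164587 in non-pregnant libraries. The library of non-pregnant heifer 115 held the lowest CPM of all 17 libraries for 26.6% of genes, and that of non-pregnant heifer 94 for 15.0%. The r between the log2(CPM + 1) of each of the 5 genes and log10 depth was between -0.277 and 0.0356. In bulk cells, fewer cells of a type and less RNA per cell cannot be told apart.

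The abundance of LTB, TNFRSF1A and TNIP1 was high in the same 3 of 5 non-pregnant heifers, and that of ZRANB1 and PIAS1 varied little. For LTB, the ligand, the non-pregnant heifers 94, 101, 107, 113 and 115 had 129, 27.6, 149, 134 and 0.983 CPM. The lowest, median and highest values were 0.644, 17.2 and 31.7 CPM in AI-preg and 1.99, 6.3 and 40.4 CPM in NB-preg. Heifers 94, 107 and 113 were thus above all 12 pregnant heifers, heifer 101 was inside their range, and heifer 115, with 8 read pairs on the gene, was below all but AI-preg heifer 119.

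For TNFRSF1A, the receptor, the same non-pregnant heifers had 70.5, 18.2, 103, 120.1 and 0.492 CPM. The lowest, median and highest values were 1.29, 14.9 and 25.1 CPM in AI-preg and 3.13, 10.2 and 21.5 CPM in NB-preg. The order of heifers was close to that of LTB. Heifers 94, 107 and 113 exceeded every pregnant heifer, and heifer 115 had 4 read pairs, the lowest value of all.

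TNIP1, the inhibitor, had 28.7, 14.1, 42.2, 58.7 and 1.6 CPM in the non-pregnant heifers. The AI-preg heifers had 1.81 to 18.0 CPM (median 10.2), and the NB-preg heifers 1.53 to 12.9 CPM (median 7.67). Heifers 94, 107 and 113 were again above all pregnant heifers. Heifer 101 was above the NB-preg heifers and within the AI-preg range, and heifer 115 was near the low end of the pregnant heifers.

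ZRANB1, the deubiquitinase, had 86.6, 96.9, 80.5, 74.7 and 131 CPM in the non-pregnant heifers. Its lowest, median and highest values were 42.5, 80.3 and 99.1 CPM in AI-preg and 37.5, 85.4 and 173 CPM in NB-preg. No non-pregnant heifer exceeded all pregnant heifers, and the highest was heifer 115, which was lowest for TNFRSF1A.

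PIAS1, the SUMO ligase, had 171, 154, 231, 239 and 81.7 CPM in the non-pregnant heifers. The AI-preg heifers had 79.6 to 173 CPM (median 138), and the NB-preg heifers 111 to 212 CPM (median 144). Heifers 107 and 113 were above all pregnant heifers, and heifer 115 was below all of them but AI-preg heifer 117.

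**Figure D1:**
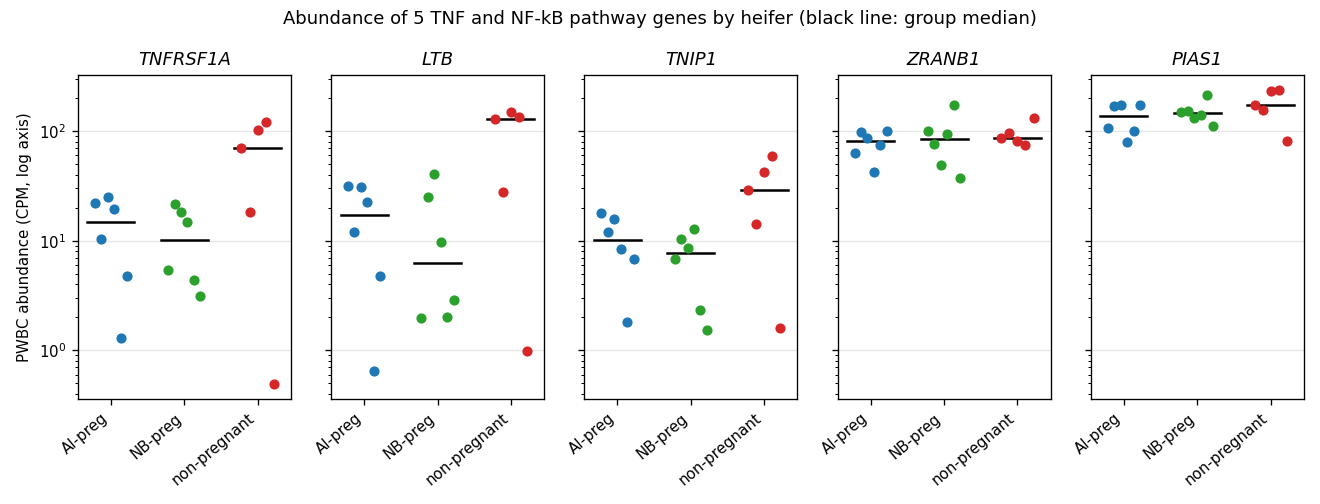
Abundance in PWBC (CPM, log axis) of TNFRSF1A, LTB, TNIP1, ZRANB1 and PIAS1 in each heifer (points) by group, with the group median as a black line. For TNFRSF1A, LTB and TNIP1, 3 non-pregnant heifers sit above all pregnant heifers and heifer 115 is at or near the bottom, and ZRANB1 and PIAS1 span a narrow range.

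The groups overlapped for each of the 5 genes in each of the 3 contrasts. Groups without overlap were found for 0.411% of genes between non-pregnant and AI-preg, for 0.439% between non-pregnant and NB-preg, and for 0% between NB-preg and AI-preg. At least 3 non-pregnant heifers above all pregnant heifers, the pattern of LTB, TNFRSF1A and TNIP1, was shared by 951 genes (8.69%).

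The fitted differences describe these values and carry no test, because the genes were chosen on them. LTB was 5.17-fold higher in non-pregnant than in AI-preg heifers (log2 fold change 2.37 ± 1.01, SE from edgeR) and 6.44-fold higher than in NB-preg (2.69 ± 1.02). TNFRSF1A was 4.51-fold (2.17 ± 0.88) and 5.53-fold higher (2.47 ± 0.89), and TNIP1 was 2.79-fold (1.48 ± 0.74) and 4.10-fold higher (2.03 ± 0.75). As differences of mean log2(CPM + 1), the values were smaller, with 1.84 ± 1.38 (SE) and 2.33 ± 1.37 for LTB. They were 1.45 ± 1.31 and 1.60 ± 1.26 for TNFRSF1A, and 1.02 ± 0.90 and 1.54 ± 0.90 for TNIP1. Within the non-pregnant group, the SDs of log2(CPM + 1) of these 3 genes were 2.67, 2.65 and 1.79, larger than these differences. For ZRANB1 the log2 fold changes were 0.29 ± 0.38 and 0.09 ± 0.38, and for PIAS1 0.39 ± 0.33 and 0.23 ± 0.33, none far from its SE. Between NB-preg and AI-preg, the 5 log2 fold changes were between -0.55 ± 0.70 (TNIP1) and 0.20 ± 0.36 (ZRANB1), all below their SE. The 2 contrasts with non-pregnant heifers share those 5 libraries.

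The differences moved with single heifers. Without heifer 115 the log2 fold change of TNFRSF1A was 2.49 against AI-preg and 2.79 against NB-preg, and without heifer 113 it was 1.79 and 2.09. That of TNIP1 against AI-preg was 1.79 without heifer 115 and 1.05 without heifer 113. That of LTB against NB-preg was 3.40 without NB-preg heifer 108 and 2.42 without non-pregnant heifer 107, and between NB-preg and AI-preg it was -1.03 without heifer 108. ZRANB1 against NB-preg changed sign, with 0.39 without NB-preg heifer 116, -0.07 without non-pregnant heifer 115 and -0.07 without NB-preg heifer 121. PIAS1 against AI-preg was 0.57 without heifer 115 and 0.26 without heifer 113. Over all genes tested, edgeR's quasi-likelihood test called 0 genes (0%) at an adjusted p under 0.05 in each contrast with non-pregnant heifers. At an unadjusted p under 0.05 there were 585 genes (5.35%) against AI-preg and 672 (6.14%) against NB-preg, and DESeq2 called 5 (0.0459%) and 11 genes (0.101%) after adjustment. Between NB-preg and AI-preg the counts were 0 adjusted and 16 unadjusted (0.146%) by edgeR, and 0 by DESeq2.

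The abundance of LTB, TNFRSF1A and TNIP1 moved with markers of neutrophils. Of 8 neutrophil markers, 4 could be identified (CXCR2, TREM1, CSF3R and S100A12), and none of them was at 0 in a library. Marker symbols came from lists of results in these heifers, so the markers identified here and below are not independent evidence. Their summed abundance was 12979, 11391 and 12197 CPM in non-pregnant heifers 94, 107 and 113, and 557 and 167 CPM in heifers 101 and 115. The AI-preg heifers had 76.7 to 4132 CPM of these markers, and the NB-preg heifers 220.1 to 2865 CPM. The 3 non-pregnant heifers with high LTB, TNFRSF1A and TNIP1 were therefore also the 3 with the highest neutrophil markers.

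Over the 17 heifers, the log2 marker sum had r = 0.909 with TNFRSF1A, 0.894 with LTB, 0.771 with TNIP1, 0.445 with PIAS1 and -0.276 with ZRANB1. A neutrophil score, the mean log2(CPM + 1) of CXCR2 and TREM1 alone and not the marker sum, was then a covariate in edgeR. With it, the log2 fold changes against AI-preg and NB-preg became -0.45 and -0.24 for TNFRSF1A, 0.40 and 0.43 for LTB, and -0.47 and 0.12 for TNIP1. For PIAS1 they became -0.31 and -0.34, and for ZRANB1 0.09 and -0.03. With the score held constant, the sign thus turned for TNFRSF1A and PIAS1 in both contrasts, for TNIP1 against AI-preg and for ZRANB1 against NB-preg. For ZRANB1 the value without the score was 0.09 ± 0.38, already near 0. The values with the score carry no test. CXCR2 and TREM1 are among the markers whose symbols came from lists of results in these heifers. The part of neutrophils in the differences was not tested.

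Markers of other leukocytes also moved with these genes. LCK, the only 1 of 7 T cell markers identified, was at 401, 288 and 342 CPM in heifers 94, 107 and 113, at 3.32 CPM in heifer 115 and between 7.04 and 247 CPM in pregnant heifers. It had r = 0.913 with TNFRSF1A, 0.891 with LTB and 0.805 with TNIP1, where the neutrophil markers had 0.909, 0.894 and 0.771. IL5RA (eosinophils, 1 of 4 markers) had r = 0.640, 0.684 and 0.684 with TNFRSF1A, LTB and TNIP1. NKG7 (NK cells, 1 of 5) had r = 0.634, 0.571 and 0.466, and ITGA2B with TUBB1 (platelets, 2 of 6) r = -0.269, -0.248 and -0.102. No marker in these lists was at 0 in a library, and no monocyte or red cell marker could be identified. As for neutrophils, the part of T cell, eosinophil, NK cell and platelet markers in the differences was not tested.

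The spread over heifers separated the 5 genes into a variable and a stable set. The highest value over the 17 heifers was 244-fold the lowest for TNFRSF1A, 231-fold for LTB and 38.3-fold for TNIP1. It was 4.61-fold for ZRANB1 and 3.0-fold for PIAS1. The SD of log2(CPM + 1) of LTB exceeded that of 99.2% of genes, TNFRSF1A 97.1% and TNIP1 85.3%, whereas ZRANB1 exceeded 8.48% and PIAS1 4.65%. LTB, TNFRSF1A and TNIP1 were thus among the more variable genes of PWBC, and ZRANB1 and PIAS1 among the most even. The genes were chosen with their levels in these heifers known, so these places among genes are a description.

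LTB, TNFRSF1A and TNIP1 varied together over the heifers. Pearson's r of log2(CPM + 1) over 17 heifers was 0.970 for TNFRSF1A:LTB, 0.951 for TNFRSF1A:TNIP1 and 0.918 for LTB:TNIP1. Spearman's rho was 0.936, 0.919 and 0.890. These values describe the heifers and carry no test, because the genes were chosen with their levels and coexpression in the same heifers known. Without the 2 heifers farthest from the median of the first gene (115 and 119), r was 0.966, 0.934 and 0.884. The 3 values thus stayed high without these 2 heifers, which had the lowest TNFRSF1A and LTB. Heifers 94, 107 and 113, with the highest TNFRSF1A and LTB, were not left out here.

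With the group means removed, r was 0.969, 0.952 and 0.898. This does not remove the choice of the genes, since heifers 94, 107 and 113 still differ from heifers 101 and 115 within the non-pregnant group. For TNFRSF1A:LTB, r was 0.998 within AI-preg, 0.920 within NB-preg and 0.995 within non-pregnant heifers. In the same order it was 0.917, 0.883 and 0.995 for TNFRSF1A:TNIP1, and 0.938, 0.669 and 0.981 for LTB:TNIP1. Each pair was positive in each group.

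Many PWBC genes had r above 0.8 with TNFRSF1A, LTB or TNIP1. Fewer had r as high as TNFRSF1A, LTB and TNIP1 had with each other. TNFRSF1A had r above 0.8 with 14.9% of the other genes, LTB with 15.2% and TNIP1 with 11.1%. Ranked by r with TNFRSF1A among 10941 genes, LTB was 9th and TNIP1 79th. By r with LTB, TNFRSF1A was 17th and TNIP1 387th, and by r with TNIP1, TNFRSF1A was 7th and LTB 116th. The genes most like TNFRSF1A over the 17 heifers were FGR, a SRC-family kinase of myeloid cells (r = 0.984), NELFE (0.975) and SGF29 (0.974). Those most like LTB were SGF29 (0.983), GPX1, a glutathione peroxidase (0.981), and ENSBTAG00000001538 (0.980). Those most like TNIP1 were ENSBTAG00000007592 (0.975), VSIR, an immune checkpoint receptor (0.966), and ENSBTAG00000045880 (0.958).

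PIAS1 was only loosely tied to the variable genes. Its r over the 17 heifers was 0.570 with TNFRSF1A, 0.585 with TNIP1 and 0.467 with LTB, again as a description with no test, and Spearman's rho was 0.453, 0.534 and 0.453. Without the 2 heifers farthest from the median, r was 0.356 for TNFRSF1A:PIAS1 (115 and 119 left out), 0.458 for TNIP1:PIAS1 (113 and 121) and 0.255 for LTB:PIAS1 (119 and 115). Leaving out single heifers gave r of 0.456 to 0.685 for TNFRSF1A:PIAS1, 0.491 to 0.753 for TNIP1:PIAS1 and 0.367 to 0.606 for LTB:PIAS1. Within groups, r of TNFRSF1A:PIAS1 was 0.00452 in AI-preg, -0.0559 in NB-preg and 0.978 in non-pregnant heifers. The values of the pregnant groups moved with single heifers, and with 1 heifer left out at a time they lay between -0.489 and 0.322 for AI-preg and between -0.686 and 0.614 for NB-preg. Over the 17 heifers, r was -0.217 for TNFRSF1A:ZRANB1 and -0.279 for LTB:ZRANB1.

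**Figure D2:**
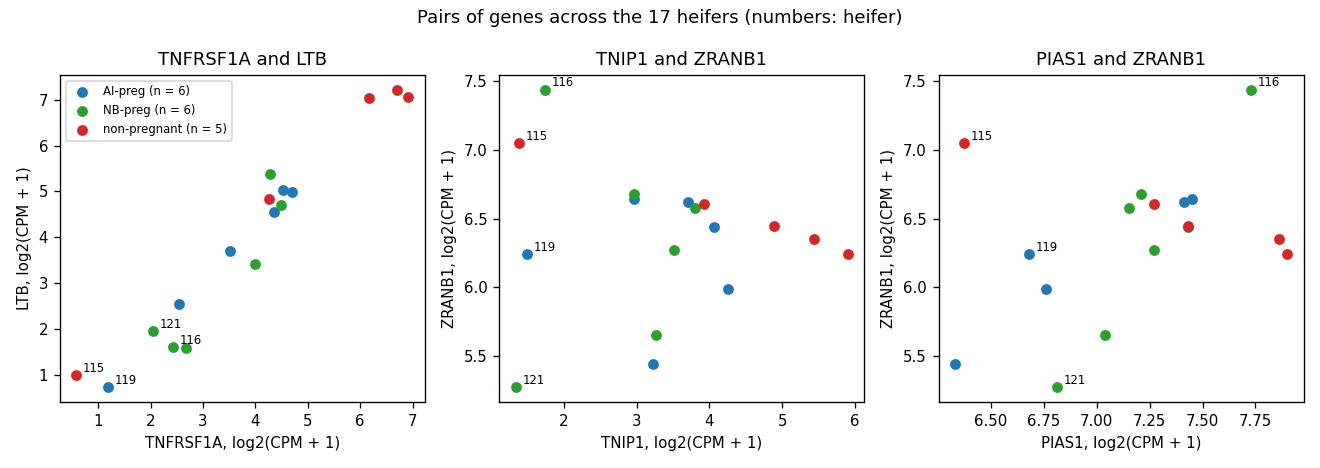
The log2(CPM + 1) of pairs of genes in each of the 17 heifers, colored by group, with heifers 115, 116, 119 and 121 numbered. TNFRSF1A and LTB lie along 1 line in all groups (r = 0.970), and in both panels of ZRANB1 the 5 non-pregnant heifers run from upper left to lower right. In the panel of PIAS1 and ZRANB1 the heifers of each pregnant group run from lower left to upper right.

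The r of ZRANB1:PIAS1 had opposite signs in pregnant and non-pregnant heifers. It was 0.922 in AI-preg, 0.928 in NB-preg and -0.990 in non-pregnant heifers. The pregnant heifers with the most ZRANB1 had the most PIAS1, and in the non-pregnant heifers ZRANB1 was lowest (74.7 CPM, heifer 113) where PIAS1 was highest (239 CPM). This pair, and TNIP1:ZRANB1, had been chosen for r in the non-pregnant group, so these values are a description with no test. Without heifer 115, r over the 4 other non-pregnant heifers was -0.948, and leaving out each pregnant heifer of a group in turn gave 0.876 to 0.984 in AI-preg and 0.872 to 0.960 in NB-preg. Over all 17 heifers r of ZRANB1:PIAS1 was 0.403, and without heifer 115 it was 0.651.

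TNIP1:ZRANB1 had r of -0.00817 in AI-preg, 0.0838 in NB-preg and -0.999 in non-pregnant heifers. Ordered by TNIP1, from 1.6 CPM in heifer 115 through heifers 101, 94 and 107 to 58.7 CPM in heifer 113, the non-pregnant heifers were in reverse order of ZRANB1, from 131 to 74.7 CPM. Without heifer 115, r in the non-pregnant group was -0.997. The r near 0 in NB-preg hid opposed heifers, since leaving out 1 NB-preg heifer at a time gave values from -0.711 to 0.728. Over the 17 heifers, r was -0.0736, and it changed sign without NB-preg heifer 116 (0.110) or non-pregnant heifer 115 (0.0612).

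In the non-pregnant group all 10 pairs of the 5 genes had an absolute r above 0.95. Of these, 6 pairs were positive and 4 negative, the latter all with ZRANB1. In AI-preg 1 of 10 pairs (TNFRSF1A:LTB) and in NB-preg 0 of 10 passed this limit. The 5 genes were chosen with their coexpression known, and ZRANB1:PIAS1 and TNIP1:ZRANB1 for r in the non-pregnant group. These counts are therefore a description and no evidence, and leaving out heifers does not remove that choice. An absolute r above 0.95 was also more frequent over all gene pairs in the non-pregnant group, which has 5 heifers rather than 6. It was met by 5.69% of all pairs of the 10942 genes in non-pregnant, 2.33% in AI-preg and 1.93% in NB-preg heifers. ZRANB1 passed it with 13.3% of genes in non-pregnant, 0.548% in AI-preg and 1.26% in NB-preg heifers, and PIAS1 with 8.0%, 0.201% and 0.512%. Without heifer 115 the r of LTB:PIAS1 in the non-pregnant group was 0.755, and that of TNFRSF1A:PIAS1 was 0.879. With 1 heifer of a pregnant group left out, so that 5 remained, the 6 pairs of TNFRSF1A, LTB or TNIP1 with ZRANB1 or PIAS1 had r of -0.573 to 0.499 in AI-preg and -0.878 to 0.841 in NB-preg, none beyond 0.95 in absolute value. Some of the remaining pairs did pass 0.95 in this way. The highest r in AI-preg was 0.998 for TNFRSF1A:LTB, 0.974 for TNFRSF1A:TNIP1, 0.984 for LTB:TNIP1 and 0.984 for ZRANB1:PIAS1. In NB-preg it was 0.947, 0.957, 0.8 and 0.96 in the same order. The difference in r between groups was not tested.

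**Figure D3:**
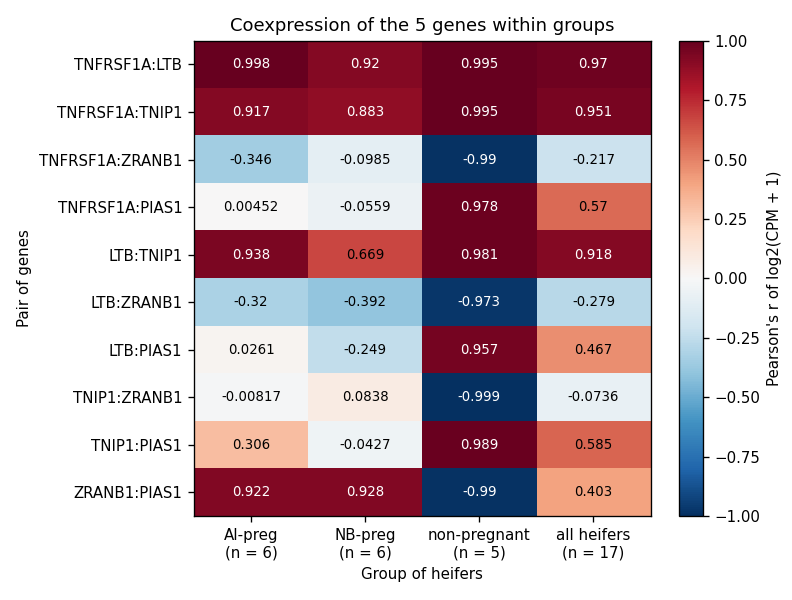
Pearson's r of log2(CPM + 1) for the 10 pairs of the 5 genes within AI-preg (n = 6), NB-preg (n = 6) and non-pregnant (n = 5) heifers and over all 17. The non-pregnant column holds absolute values above 0.95 in every row, and ZRANB1:PIAS1 changes from 0.922 and 0.928 to -0.990.

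The genes most like ZRANB1 over the 17 heifers were ENSBTAG00000012047 (r = 0.937), ENSBTAG00000017992 (0.936) and ENSBTAG00000001737 (0.913), and those most like PIAS1 were ENSBTAG00000019675 (0.824), FAM129A (0.822) and ENSBTAG00000037413 (0.821). ZRANB1 and PIAS1 had r above 0.8 with 0.503% and 0.101% of genes. They thus had far fewer close neighbors than the 3 variable genes.

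The rest of the pathway was described with a list of 91 genes by role, of which 29 could be identified and all 29 were kept, 24 apart from the 5 genes above. Gene symbols came from lists of results in these heifers, so the 24 are not independent evidence of a direction. In each contrast 0 of 24 passed an adjusted p of 0.05 in edgeR (smallest adjusted p 0.78, 0.778 and 1.0) and 0 in DESeq2. At an unadjusted p under 0.05, 2 of 24 were higher and 0 lower in non-pregnant than in AI-preg heifers, beside 2.6% and 2.75% of all genes. Against NB-preg, 1 was higher and 1 lower, beside 2.81% and 3.33% of all genes, and between NB-preg and AI-preg 0 differed, beside 0.146%. The log2 fold change was positive for 17 of 24 against AI-preg (median 1.27) and for 17 of 24 against NB-preg (median 0.91). Over all genes, 42.2% and 47.3% were positive, with medians of -0.15 and -0.05. With the neutrophil score as a covariate, 13 and 6 of 24 were positive, with medians of 0.07 and -0.51.

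Among the ligands, TNF itself was at 1.72 to 107 CPM in non-pregnant (median 68.3), 2.74 to 36.2 CPM in AI-preg (19.8) and 4.67 to 34.9 CPM in NB-preg heifers (11.7). Its log2 fold changes of 1.44 ± 0.81 (edgeR, adjusted p = 0.78) and 1.68 ± 0.81 (adjusted p = 0.778) did not pass the test. As with LTB, 3 non-pregnant heifers were above all heifers of each pregnant group, and r over 17 heifers was 0.956 with TNFRSF1A and 0.95 with LTB. TNFSF12 (TWEAK) and TNFSF14 (LIGHT) had log2 fold changes of 1.79 ± 1.17 and 1.21 ± 0.73 against AI-preg, and 0.69 ± 1.16 and 1.13 ± 0.73 against NB-preg. TNFSF10 (TRAIL), a death-inducing ligand, had -0.64 ± 0.69 and -0.41 ± 0.69, and varied against TNFRSF1A (r = -0.648). None of these 3 passed an unadjusted p of 0.05 in a contrast.

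Among the receptors, LTBR, the receptor of lymphotoxin, had a log2 fold change of 2.51 ± 0.91 against AI-preg (edgeR, adjusted p = 0.78) and 1.12 ± 0.88 against NB-preg (adjusted p = 0.808), and the first passed an unadjusted p of 0.05. The median of LTBR was 0.946 CPM in AI-preg, 3.2 CPM in NB-preg and 5.87 CPM in non-pregnant heifers. TNFRSF17 (BCMA), a receptor of plasma cells, had the opposite sign. Its medians were 7.94, 10.6 and 2.19 CPM, with log2 fold changes of -1.41 ± 0.69 (edgeR, adjusted p = 0.78) and -2.11 ± 0.71 (adjusted p = 0.778), of which the second passed an unadjusted p of 0.05. The B cell receptors CD40 (0.87 ± 0.96 and 0.63 ± 0.96) and TNFRSF13C (1.34 ± 1.11 and 1.56 ± 1.12) were within 1.5 SE of 0 and followed LTB over the heifers, with r = 0.864 and 0.916.

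The NF-kB subunit RELA ranged from 0.123 to 187 CPM in non-pregnant heifers (median 140.1), with medians of 21.9 in AI-preg and 15.7 in NB-preg. Its log2 fold changes were 1.74 ± 1.02 and 1.64 ± 1.02, and RELB, the subunit of the noncanonical branch, had 1.66 ± 1.10 and 1.30 ± 1.10. Neither passed an unadjusted p of 0.05. The I-kappa-B proteins NFKBIB, NFKBID and BCL3, which bind NF-kB subunits, had log2 fold changes between 1.28 and 1.69 in the contrasts with non-pregnant heifers, and none passed an unadjusted p of 0.05. Over the 17 heifers RELA had r = 0.938 with TNFRSF1A, RELB 0.917, NFKBID 0.955, BCL3 0.902 and NFKBIB 0.848. MAP3K14 (NIK), the kinase that carries the lymphotoxin signal, had r = 0.958 with LTB. TBK1 and CYLD, a kinase and a deubiquitinase, varied the other way, with r of -0.813 and -0.729 with TNFRSF1A. The 5 subunits and I-kappa-B proteins thus followed the receptor over heifers, in a tissue where 14.9% of genes had r above 0.8 with it.

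Of the target genes, IL1B, a cytokine induced by NF-kB, ranged from 9.35 to 795 CPM in non-pregnant heifers (median 577), with medians of 7.58 in AI-preg and 14.3 in NB-preg. Its log2 fold changes were 3.18 ± 1.35 (edgeR, adjusted p = 0.78) and 3.28 ± 1.35 (adjusted p = 0.778), both past an unadjusted p of 0.05. Its r with TNFRSF1A was 0.593. The other 3 target genes measured did not pass an unadjusted p of 0.05 in edgeR, and no target gene passed after adjustment. Against AI-preg and NB-preg, the log2 fold changes were -0.14 ± 0.76 and -0.58 ± 0.77 for CCL4, a chemokine. They were -0.38 ± 0.95 and -1.03 ± 0.97 for PTGS2, a prostaglandin synthase, and 1.01 ± 0.89 and 0.09 ± 0.89 for JUNB, an AP-1 subunit. Between NB-preg and AI-preg, the list genes with the smallest p were LTBR (log2 fold change 1.39 ± 0.86), TNFRSF17 (0.70 ± 0.63) and JUNB (0.92 ± 0.85), and none passed an unadjusted p of 0.05 in edgeR.

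**Figure D4:**
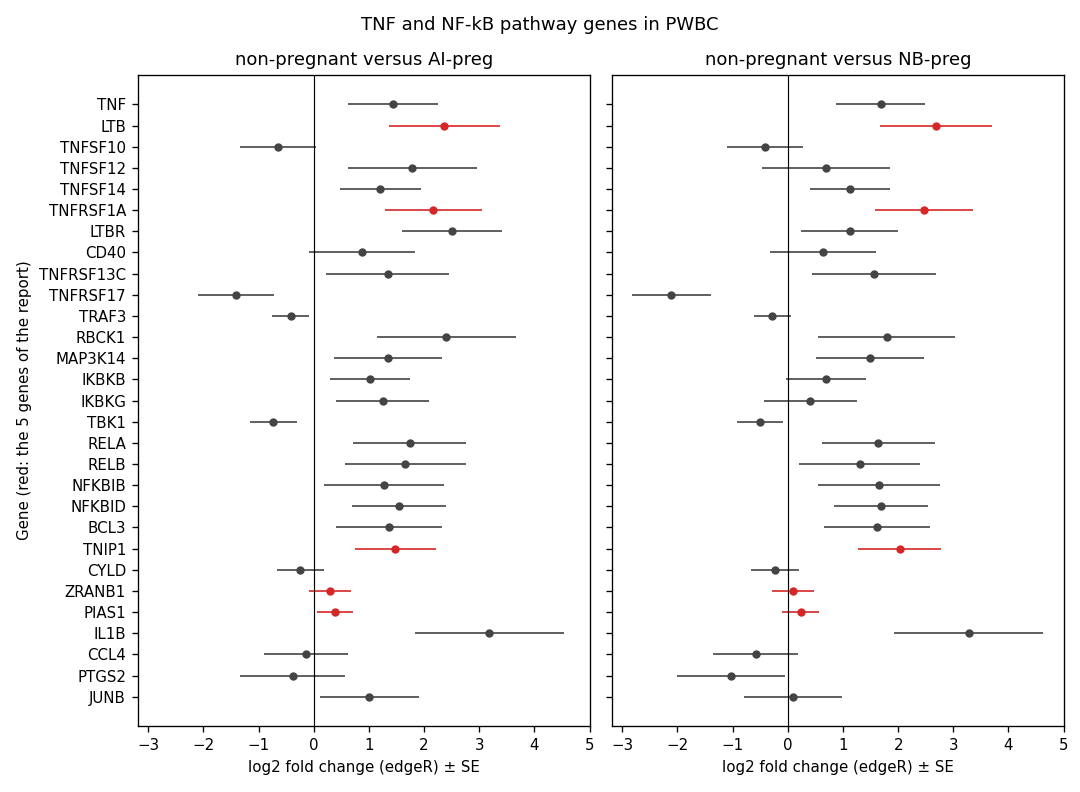
Log2 fold change ± SE (edgeR, 5 non-pregnant against 6 AI-preg or 6 NB-preg heifers) of the 29 pathway genes measured, ordered by role from ligands at the top to target genes at the bottom, with the 5 genes of the report in red. LTB, TNFRSF1A and TNIP1 lie to the right with TNF, RELA and IL1B, ZRANB1 and PIAS1 lie near 0, and TNFRSF17 lies to the left.

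In small RNA of plasma, few reads fell on these genes. The highest of 17 libraries had 7 reads on TNFRSF1A, 12 on LTB, 6 on TNIP1, 8 on ZRANB1 and 3 on PIAS1. More than 3 reads were found in 2, 3, 6, 1 and 0 libraries, so only TNIP1 was compared. Its mean log2(CPM + 1) was 0.26 ± 0.31 (SD) over the 5 non-pregnant heifers, 0.43 ± 0.34 over the AI-preg heifers and 0.43 ± 0.40 over the NB-preg heifers. The differences of -0.18 (non-pregnant minus AI-preg) and -0.17 (non-pregnant minus NB-preg) were within this spread (exact permutation test, two-sided, p = 0.394 and 0.446, adjusted p = 0.669 for both), and NB-preg and AI-preg differed by -0.01 (exact permutation p = 0.968). A difference was not detectable at this depth.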

How the data were processed

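The authors deposited counts that are not normalized: read pairs per gene for mRNA of PWBC, counted by strand, and reads per gene for plasma small RNA. The submitters' processing notes name HISAT2 2.1.0, featureCounts 1.6.0 and the assembly ARS-UCD1.2, and the authors removed reads with several alignments, with 5 or more mismatches or marked as duplicates. The version of the annotation differs between their methods and code, and a multiread filter lowers counts of genes with close copies. All columns matched a heifer by its number.

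Genes were kept at 2 CPM in 5 libraries, with library size summed over the genes kept. The 3 groups were fitted together with edgeR 4.0.16 (quasi-likelihood test, robust, no scaling factor, Benjamini-Hochberg) under R 4.3.3. DESeq2 1.42.0 was an alternative. Coexpression used Pearson's r of log2(CPM + 1), given as a description. Permutation tests were run in Python 3.11.15 (numpy 2.4.6, pandas 2.3.3, scipy 1.17.1) and plots in matplotlib 3.10.9. The edgeR test and the permutation test of a correlation were tested on simulated data, and the exact permutation test used for plasma was not. The p-values measure the spread between heifers, 1 library each.

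The genes and lists were chosen with earlier results of these data known. Symbols came from the supplementary tables alone (2335 identifiers), so 62 of 91 pathway genes were not analysed here. No sequence or gene length was used, and levels of different genes are not compared. The text names the 5 genes, list genes past an adjusted p of 0.05 or with the 3 smallest p in a contrast, list ligands, receptors, NF-kB subunits and I-kappa-B proteins, markers, and for each of the 5 genes the 3 with the highest r. MAP3K14, TBK1, CYLD, CCL4 and PTGS2 were named after their values were seen. A marker list and 1 gene opposed to LTB are not reported here. Alternatives covered scaling, filters, a neutrophil score, the pseudocount, Spearman's rho and each heifer left out.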

Additional observations from a re-analysis of the deposited data

Results flagged for a closer look

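In 2 of 87 groups tested, 1 heifer stood apart from the others of its group, where chance gives about 1 in 20. Both were AI-preg heifer 114, with 106 CPM of TNFSF14 and 269 CPM of IL1B, against group medians of 12 and 7.58 CPM. None of the 5 genes was found in this way, although the highest and lowest TNFRSF1A values, 244-fold apart, were both from non-pregnant heifers.

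Reads on the 5 genes also appeared in plasma small RNA, which was not made to measure mRNA. The highest library held 7 reads on TNFRSF1A (non-pregnant heifer 115), 12 on LTB (AI-preg heifer 117), 6 on TNIP1 (non-pregnant heifer 94) and 8 on ZRANB1 (NB-preg heifer 93), above the 3 reads that a count of 0 allows.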

How the results depend on the processing

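With the neutrophil score as a covariate, the log2 fold changes against AI-preg and NB-preg moved to -0.45 and -0.24 for TNFRSF1A, -0.47 and 0.12 for TNIP1 and -0.31 and -0.34 for PIAS1, and that of LTB against NB-preg to 0.43. The other 323 alternative values of the fold changes moved by less than 1 SD between heifers. Among them, LTB against AI-preg still fell from 2.37 to 0.40 with the score, where its pooled SD was 2.18. DESeq2 called 5 and 11 genes against AI-preg and NB-preg where edgeR called 0, none of them among the 24 pathway genes, and its size factors shifted the median of all genes by 0.31 and 0.18 (0.11 between NB-preg and AI-preg, and 0.13, 0.03 and 0.09 with TMM factors). The count of pairs at an adjusted permutation p under 0.05, which is no evidence because the genes were chosen with these values known, was 5, and 3 with TMM factors, Spearman's rho or group means removed (chosen after seeing the data), and from 3 (without heifers 119, 121, 107 or 113) to 6 (without heifer 117 or 116) with a heifer left out. The r of TNIP1:ZRANB1 ranged from -0.348 to 0.110 with a heifer left out, with 0.0612 without heifer 115. In plasma, the TNIP1 difference between NB-preg and AI-preg ranged from -0.10 to 0.10, with 0.04 without heifer 117, 0.08 without 103 or 111 and 0.02 without 108. The cause of these changes was not tested. No paired analysis was possible because the PWBC groups share no heifer numbers, and no test compared PWBC with plasma of the same heifer. Depth limits low genes, most in the non-pregnant libraries.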

Other observations

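The genes most opposed to TNFRSF1A, TNIP1, ZRANB1 and PIAS1 over the 17 heifers were chosen after their values were seen. RRAS2, a small GTPase, had r = -0.972 with TNFRSF1A, and CMPK1, a nucleotide kinase, had -0.951 with TNIP1. EEF1E1 had -0.925 with ZRANB1, and ENSBTAG00000020504 had -0.851 with PIAS1. An r under -0.8 was met by 4.37% of genes with TNFRSF1A, 5.18% with LTB, 2.96% with TNIP1, 0.256% with ZRANB1 and 0.0457% with PIAS1.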
